A study of Mus musculus with 6 samples.

Results

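Keratins are the intermediate filament proteins of epithelial cells, and 9 genes of keratin and squamous biology were followed through 6 mouse lung metastases. They are the basal keratins Krt5 and Krt14, the stress keratins Krt17, Krt6a, Krt6b and Krt16, the suprabasal keratin Krt10, and the squamous genes Klk7 and Krtdap. These are 9 of the 12393 genes with a probe set of their own on the array. The genes were proposed after earlier results of these data had shown that squamous genes differ between single metastases, and for each gene the probe set was chosen by its mean signal over the 6 arrays, the highest being used. The differences between metastases are therefore given as a description, with no test.

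All 6 metastases came from MMTV-Myc tumours in FVB mice, so every sample carries a Myc transgene driven by a viral promoter that is active in mammary epithelium. According to the labels, 3 metastases were from mice of the genotype Myc E2F2 KO (KO) and 3 from mice of the genotype Myc E2F3 Het (Het); the ages are not given in the sources used here. The titles of the 3 Het samples share 1 number, with the endings LM2, LM1 and LM3 for Het replicates 1, 2 and 3, whereas each KO title has a number of its own. The shared number probably marks 1 mouse, but its meaning is not stated. No Myc metastasis with intact E2F genes is part of the comparison.

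Krt5 and Krt14 pair as a type II and a type I keratin in the basal layer of stratified epithelia and in the myoepithelial layer of the mammary gland. Krt6a, Krt6b, Krt16 and Krt17 are induced in wounded, stressed or hyperproliferative epidermis. Krt10 replaces the basal keratins when keratinocytes move upward and differentiate, Klk7 encodes a protease that cuts the links between cornified cells, and Krtdap encodes a small secreted protein of differentiating keratinocytes. Mouse mammary tumours can contain areas of squamous differentiation beside luminal ones.

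The sequences just upstream of 4 of these genes are shown because Krt5, Klk7 and Krtdap varied widely between metastases while Krt10 hardly varied. The RefSeq promoter table (GRCm38.p6) held 5 of the 9 genes. The 250 bases before the transcript start are printed 5′ to 3′ on the gene's own strand, and capitals mark matches on either strand to TATAAA, the core of a TATA box, TGANTCA, the core bound by AP-1, or GCCNNNGGC, a core bound by AP-2.
Krt5 promoter, chr15:101712906-101713155, minus strand: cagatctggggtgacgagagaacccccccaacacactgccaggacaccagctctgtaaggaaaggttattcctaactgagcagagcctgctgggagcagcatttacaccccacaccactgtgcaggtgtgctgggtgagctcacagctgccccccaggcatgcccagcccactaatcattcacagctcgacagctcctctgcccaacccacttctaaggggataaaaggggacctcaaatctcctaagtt
Klk7 promoter, chr7:43811044-43811293, plus strand: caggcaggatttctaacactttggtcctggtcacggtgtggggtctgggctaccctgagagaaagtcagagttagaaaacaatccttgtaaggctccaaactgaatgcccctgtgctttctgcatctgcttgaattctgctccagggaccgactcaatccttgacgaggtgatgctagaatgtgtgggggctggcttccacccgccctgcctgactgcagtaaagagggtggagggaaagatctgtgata
Krtdap promoter, chr7:30787655-30787904, plus strand: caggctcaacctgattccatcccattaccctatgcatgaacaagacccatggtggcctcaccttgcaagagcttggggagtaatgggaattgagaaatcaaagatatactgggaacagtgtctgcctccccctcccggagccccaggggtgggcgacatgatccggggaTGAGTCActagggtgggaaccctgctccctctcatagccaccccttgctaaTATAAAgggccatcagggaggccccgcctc
Krt10 promoter, chr11:99389365-99389614, minus strand: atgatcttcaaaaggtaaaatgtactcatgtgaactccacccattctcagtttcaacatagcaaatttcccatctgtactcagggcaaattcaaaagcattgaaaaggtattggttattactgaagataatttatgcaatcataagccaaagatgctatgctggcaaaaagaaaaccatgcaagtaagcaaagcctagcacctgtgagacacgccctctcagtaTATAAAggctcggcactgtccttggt

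Krtdap had 1 match to TATAAA. Its match to the AP-1 core lay from 81 to 75 bases before the start, and the matches did not overlap. Krt10 had 1 match to TATAAA, from 26 to 21 bases before the start. No match to any of the 3 motifs lay in the windows of Krt5, Klk7 or Krt14, which says only that these letters are not in those 250 bases. Among 32851 promoter windows of the same length, 12.4% held TATAAA, 6.7% TGANTCA and 13.7% GCCNNNGGC. TATAAA was thus found both in Krtdap, which varied, and in Krt10, which did not. In the gene order of the RefSeq table, Krt6b, Krt6a and Krt5 follow each other directly, as do Krt14, Krt16 and Krt17, and Klk7 lies between Klk8 and Klk6.

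Array medians lay between 137.6 and 164.8 after the authors' scaling, which gave each array a trimmed mean of 500.2. Ratios of 3′ to 5′ signal, a measure of RNA and labelling quality, were raised in Het replicate 1: 2.37 for actin against 1.48 to 1.73 elsewhere, and 4.16 for the spiked-in control thr against 1.60 to 2.24. The spiked-in controls dap, phe and lys were raised there too, at 3.91, 3.17 and 6.24 against at most 2.04, 1.66 and 3.77. For Gapdh the ratio was 0.93 against 0.75 to 0.90, and for the transferrin receptor it was 11.84 against 3.25 to 5.15. As a check of the tissue label, the luminal keratin genes Krt8 and Krt18 had signals of at least 8895 on every array. The 11 milk markers summed to 55412 to 119065 in KO and 85169 to 99914 in Het arrays. Lung alveolar genes were present on all arrays too, with a summed signal over 12 markers of 17442 to 74421. Which cells the Krt8 and Krt18 signal came from was not tested. These are bulk samples, so fewer cells of a type and less RNA per cell cannot be told apart in any value below.

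The basal keratin Krt5 was almost missing from 1 metastasis and bright in others. Its signal was 44.0, 1907 and 959 in KO replicates 1, 2 and 3, and 1704, 395 and 583 in Het replicates 1, 2 and 3. KO replicate 2 and Het replicate 1 were highest, KO replicate 1 was far below all others, and the groups overlapped. The range over the 6 arrays was 5.0 on the log2(signal + 16) scale, the scale of all differences given here.

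Krt14, the partner of Krt5, had a signal of 547, 1800 and 2025 in KO replicates 1 to 3 and of 3593, 1306 and 1341 in Het replicates 1 to 3. KO replicate 1 was again lowest and Het replicate 1 highest, and the groups overlapped, with a range of 2.68. The probe set used for Krt14 carries the suffix by which the manufacturer marks probes that can match related transcripts. A second probe set of Krt14, without that mark, ran in nearly the same order, at 405, 1914 and 1587 in KO and 2699, 874 and 1025 in Het; KO replicates 2 and 3 changed places. The last, dim one kept Het replicate 1 highest and KO replicate 1 lowest, at 93.5 and 35.0.

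The stress keratins varied in the same metastases. Krt17 had a signal of 118, 631 and 344 in KO replicates 1 to 3 and of 851, 182 and 210.0 in Het replicates 1 to 3, a range of 2.69. The high arrays were Het replicate 1 and KO replicate 2, and the groups overlapped. A dim second probe set of Krt17 stayed at or below 23.6 on every array, and 1 further probe set annotated to both Krt17 and Krt14 was not used.

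Krt6a had the widest range of the 9 genes, 5.51. Its signal was 48.1, 2210 and 603 in KO replicates 1 to 3 and 2913, 182 and 454 in Het replicates 1 to 3. Het replicate 1 and KO replicate 2 lay well above the rest, and the groups overlapped. The other probe sets of Krt6a had ranges of 4.43 and 6.64, with the same highest and lowest arrays.

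Krt6b, a close paralog of Krt6a whose transcripts may share probes with it, had a signal of 26.3, 731 and 70.0 in KO replicates 1 to 3 and of 960.0, 32.3 and 136 in Het replicates 1 to 3. Here KO replicate 3 sat with the low arrays, which it did not for Krt6a. Krt16, a type I partner of the Krt6 keratins, had a signal of 24.9, 554 and 109 in KO replicates 1 to 3 and of 502, 30.4 and 84.2 in Het replicates 1 to 3. The ranges were 4.53 for Krt6b and 3.80 for Krt16, and in both the groups overlapped.

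The squamous genes followed the same arrays. Klk7 had a signal of 10, 666 and 82.4 in KO replicates 1 to 3 and of 1047, 63.5 and 151 in Het replicates 1 to 3, a range of 5.36. Krtdap had a signal of 3.9, 262 and 52.3 in KO replicates 1 to 3 and of 608, 25.1 and 65.9 in Het replicates 1 to 3, a range of 4.97. For both genes Het replicate 1 was highest, KO replicate 2 next and KO replicate 1 lowest. Detection calls were not used, so whether signals as low as 3.9 or 10 lay above background is not known.

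Krt10 did not take part in this pattern. Its signal was 157, 127 and 132 in KO replicates 1 to 3 and 173, 165 and 128 in Het replicates 1 to 3. The range was 0.40, against a median range of 0.66 over all 13576 probe sets kept, and KO replicate 2, which was high for the other genes, had the lowest Krt10 signal.

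**Figure D1:**
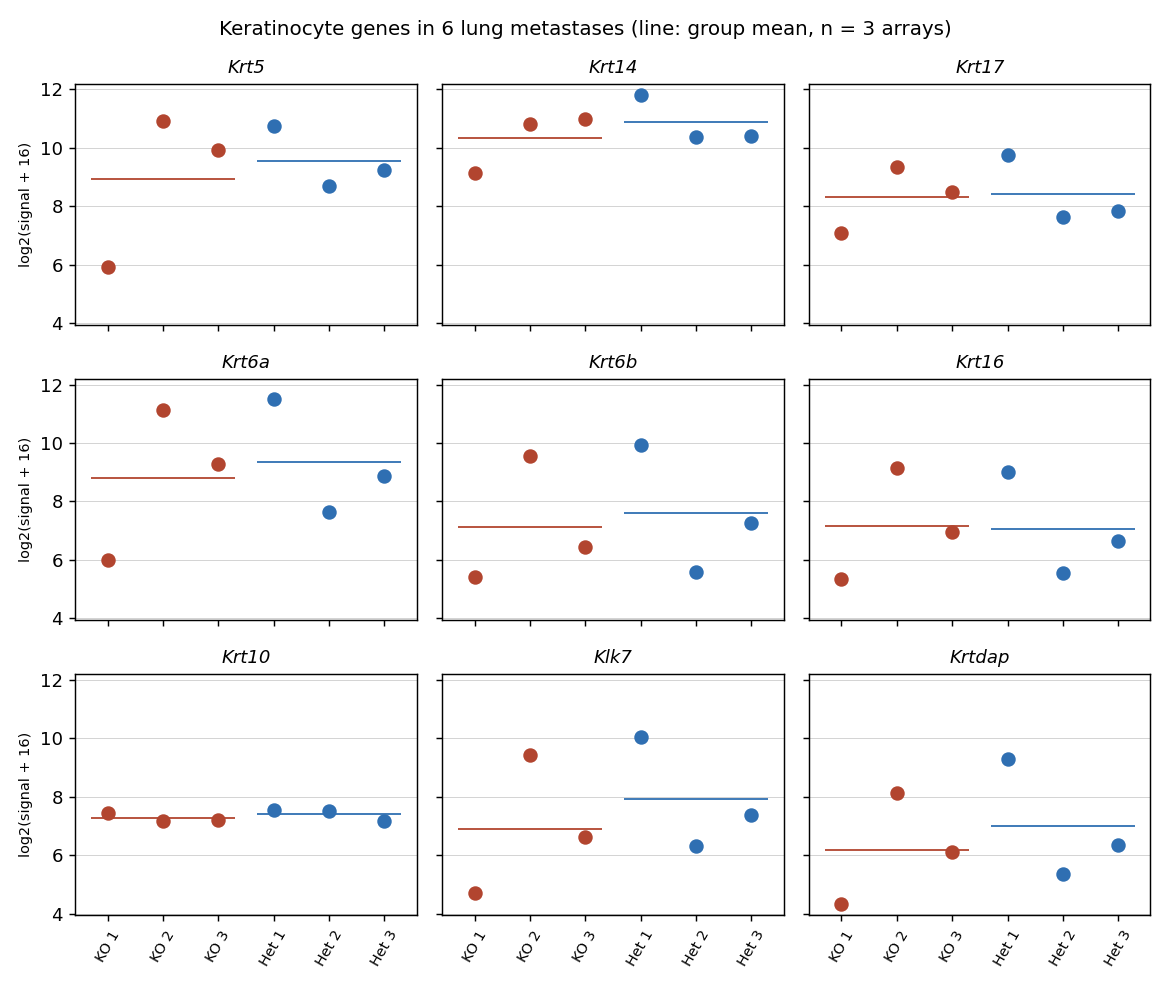
Signal of the 9 keratinocyte genes on the log2(signal + 16) scale (vertical axis) in each metastasis (horizontal axis), with KO arrays in red, Het arrays in blue and a line at each group's mean (n = 3 arrays). In 8 of the 9 panels KO replicate 1 is lowest, and KO replicate 2 and Het replicate 1 are high in different genotype groups, while Krt10 lies flat with a range of 0.40.

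KO replicate 1 was the lowest array for 8 of the 9 genes, and the highest was Het replicate 1 for 7 and KO replicate 2 for 2. Averaged over the 9 genes and centred on the mean of the 6 arrays, the level was -1.97, 1.39 and -0.12 in KO replicates 1 to 3 and 1.85, -0.94 and -0.21 in Het replicates 1 to 3. A range of at least 2 was seen in 8 of the 9 genes, beside 4.31% of all probe sets kept. Since such variation was known when the genes were proposed, nothing is read from this share.

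The spread was also present among metastases whose titles share a number. Within the 3 Het arrays alone, 7 of the 9 genes had a range of at least 2, beside 0.913% of all probe sets kept. The exceptions were Krt14 at 1.45 and Krt10 at 0.39. Nothing is read from the share of 0.913% either, since such variation was known when the genes were proposed. Krt6b ranged by 4.34, Krtdap by 3.92, Krt6a by 3.89, Klk7 by 3.74 and Krt16 by 3.48 within these arrays. For each of the 7 genes Het replicate 1 was the highest and Het replicate 2 the lowest of the 3. Between Het replicates 2 and 3 the widest gap was that of Krt6b, with log2 values of 5.593 and 7.248. Het replicate 1 is also the array with the raised 3′ to 5′ ratios. KO replicate 2 had a ratio of 1.49 for actin and 1.71 for thr, within the range of the other arrays, and was also high for most of these genes: Het replicate 1 minus KO replicate 2 was -0.16 for Krt5, -0.14 for Krt16, 0.39 for Krt6b, 0.40 for Krt6a, 0.42 for Krt17, 0.64 for Klk7, 0.99 for Krt14 and 1.16 for Krtdap, so that Krt14 and Krtdap were about 1 log2 unit lower in KO replicate 2. The part of RNA and labelling quality in the values of Het replicate 1 was not tested.

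KO replicate 3 took a different place for different genes. KO replicate 2 exceeded KO replicate 3 by 3.12 for Krt6b, 2.79 for Klk7, 2.19 for Krt16, 2.03 for Krtdap and 1.85 for Krt6a, and by 0.98 for Krt5 and 0.84 for Krt17, and the difference for Krt14 was -0.17. Put on each gene's own range from its lowest to its highest array, KO replicate 3 lay at 80.4% for Krt5 and 69.3% for Krt14. It lay at 59.3% for Krt6a and 53.0% for Krt17, and lower still for Krt16 (42.5%), Klk7 (35.9%), Krtdap (35.8%) and Krt6b (22.6%). Het replicate 2 lay at 55.5% for Krt5 and 46.0% for Krt14 against 30.2% for Klk7, 29.5% for Krt6a, 21.0% for Krtdap, 20.9% for Krt17, 4.8% for Krt16 and 4.2% for Krt6b. Het replicate 3 did not follow that order: Krt5 was at 66.4%, but Krt14, at 47.4%, lay below Krt6a at 52.1% and Klk7 at 50.2%, with Krtdap at 41.0%, Krt6b at 40.7%, Krt16 at 34.0% and Krt17 at 28.0%. Apart from Krt10, the lowest places in KO replicate 3 and Het replicate 2 were those of the stress keratin Krt6b. Krt10, with its narrow range of 0.40, lay at 11.8% in KO replicate 3 and 85.7% in Het replicate 2. Each of these values comes from 1 sample, so the order of the genes has no test.

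**Figure D2:**
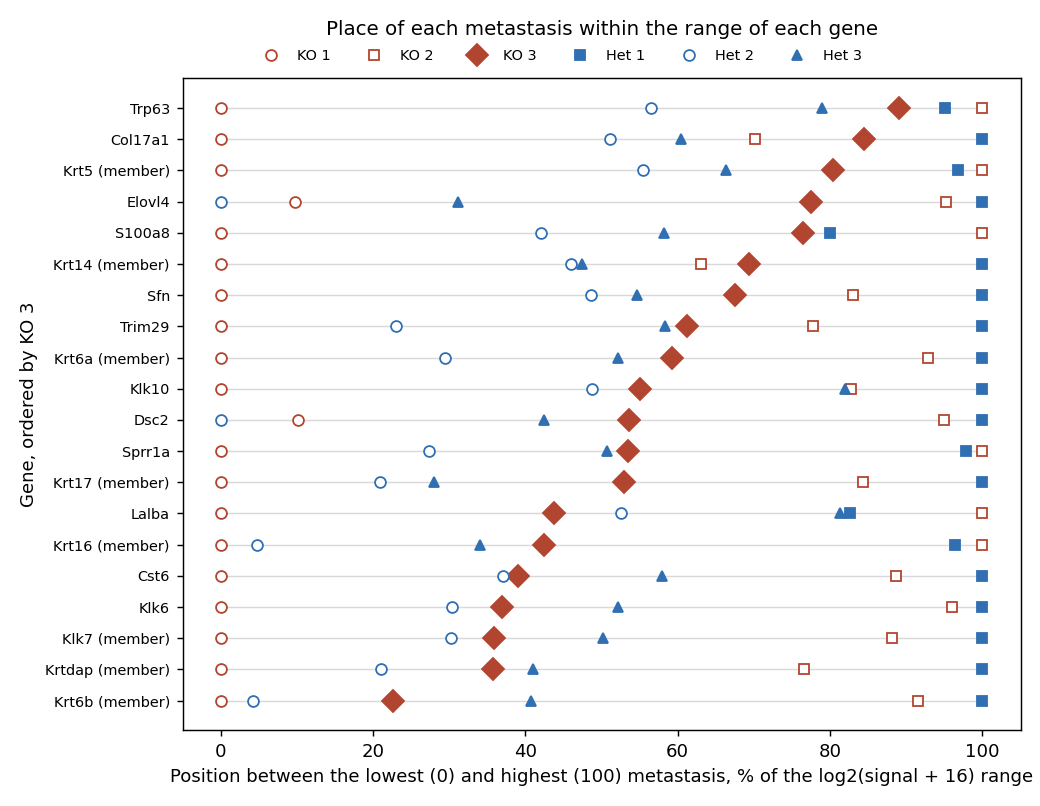
Place of each metastasis between the lowest (0%) and the highest (100%) array of a gene on the log2(signal + 16) scale (horizontal axis), for 8 of the 9 keratinocyte genes and 12 other genes (vertical axis, ordered by KO replicate 3). KO replicate 3, the large diamond, moves from 89.1% for Trp63 and 80.4% for Krt5 down to 22.6% for Krt6b. Each gene is shown by its brightest probe set, and other probe sets of Krt6a, Krt14 and Krt17 gave other places. Krt10 is left out because its range is only 0.40.

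The genes with patterns closest to the 9 were sought by the root-mean-square difference between centred log2 profiles over the 6 arrays, among 7962 other genes with a probe set kept. The arrays are not independent if the Het samples share a mouse, so this is a measure of likeness only. Nearest to the mean profile were Sprr1a (0.17), which encodes a precursor of the cornified envelope, and Klk6 (0.25), a protease gene next to Klk7; the median over all genes was 1.31. Dsc2 (0.53), which encodes a desmosomal cadherin, Klk10 (0.55), Trim29 (0.56), S100a8 (0.61), Trp63 (0.64), Elovl4 (0.66), Sfn (0.67) and Lalba (0.67) followed. Lalba encodes alpha-lactalbumin, a milk protein, and is not a keratinocyte gene.

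Taken gene by gene, the first neighbours differed, but several were shared lower down. The median difference over all genes was 0.83 from Krt14, 0.97 from Krt17, 1.69 from Krt5 and 1.91 from Krt6a. Values for different genes are therefore not on a common scale. The nearest to Krt5 was Trp63 (0.48), the master regulator of basal epithelial cells, and the nearest to Krt14 was Col17a1 (0.20), a hemidesmosomal collagen of basal cells. For Klk7 and Krt6a the nearest was Cst6 (0.19 and 0.51), an inhibitor of cysteine proteases in the epidermis. Klk6 was nearest to Krtdap (0.40) and Krt6b (0.53), Sprr1a to Krt16 (0.39) and Dsc2 to Krt17 (0.29). Sprr1a and Klk6 were also the next nearest to Krt5 (0.68 and 0.77), and both were among the 3 nearest to Klk7 (0.68 and 0.45) and Krtdap (0.56 and 0.40).

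Trp63 had a signal of 7.5, 285 and 212 in KO replicates 1 to 3 and of 249.9, 83.3 and 160.0 in Het replicates 1 to 3. As for Krt5, it was near the bottom of the scale in KO replicate 1 and high in KO replicate 3, at 89.1% of its range. Col17a1 had a signal of 28.6, 171 and 234 in KO and of 328, 111 and 137 in Het replicates 1 to 3, with KO replicate 3 at 84.5% of the range. Cst6 had a signal of 36.2, 1703 and 228 in KO and of 2682, 209 and 499 in Het replicates 1 to 3, with KO replicate 3 at 39.1%. These genes were named for their likeness to the 9, so their pattern adds no test of it.

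Related genes were taken from 10 lists of keratinocyte and epithelial biology, with 166 genes, of which 140 were on the array and 81 were kept by the filter on dim probe sets. A range of at least 2 was seen in 18 of the 81 (22.2%), beside 4.31% of all probe sets kept; the lists were chosen with earlier results known, so nothing is read from this share. Among the epidermal proteases and inhibitors, 4 of 8 genes kept reached it. They were Cst6 at 5.69, Klk6 at 3.92, Klk10 at 3.48 and Klk8 at 2.45, all highest in Het replicate 1. The other 4, which include the membrane proteases St14 and Prss8, ranged by no more than 1.71. Klk6, Klk8 and Klk10 lie in the same gene cluster as Klk7.

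Genes of cornification were divided. Of the cornified envelope genes, 8 of 24 on the array were kept and 3 ranged by at least 2. Among the 8 kept, 1 was lowest in KO replicate 1. In the same 8, 2 were highest in Het replicate 1 and 2 in KO replicate 1. Sprr1a had a signal of 32.1, 518 and 159 in KO and of 492, 76.9 and 147 in Het replicates 1 to 3. The signal of Krt1, the usual partner of Krt10, did not exceed 15.1 on any array, and that of involucrin (Ivl) did not exceed 4.7. Filaggrin (Flg) reached 21.1, and loricrin (Lor) lay between 42.2 and 110.4 without following the keratins. Some other genes of the list had their highest signal in Het replicate 1 and the next in KO replicate 2, as most of the 9 genes did. Asprv1, a protease gene of the upper epidermis, read 340.1 and 257 there and 116 or less elsewhere, a range of 2.05. Calml3 read 357 and 223 on these arrays. The dim genes Crct1 (164 and 106.5), Sprr1b (153 and 109) and Cdsn (148 and 78.7), which fell below the filter, had the same 2 arrays on top. The lowest array of Asprv1, Calml3, Crct1 and Sprr1b was Het replicate 2, not KO replicate 1. The squamous label thus has defining genes that were dim on all 6 arrays, Krt1, Ivl and Flg, and others that were brighter in those metastases; these genes were picked out after their values were seen. Scel, another gene of the list, went its own way, with 574 in KO replicate 1 and 62.7 in KO replicate 3. Further kept genes of the list also peaked elsewhere. Lgals7 was highest in KO replicate 1, at 863, and Dmkn in Het replicate 2, at 2351. Tgm1 and Ppl were highest in KO replicate 3, at 174 and 275.

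Genes of basal cell adhesion did not move as a block. Col17a1 ranged by 2.95 and Bcam, which was highest in KO replicate 1, by 2.10, but Itgb4, which encodes the integrin chain of hemidesmosomes, and Itga6, its partner, ranged by 0.46 and 1.13. Of the 12 genes kept, 3 were lowest in KO replicate 1 and 5 were highest there. The desmosome genes Dsc2 (2.40) and Dsp (2.14) varied most among 8 kept, while Dsg2 ranged by 0.33. Dsp had a signal of 1127, 2882 and 2104 in KO and of 2544, 642 and 953 in Het replicates 1 to 3, so its lowest array was Het replicate 2.

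Most contractile genes of myoepithelial cells ran differently from the basal keratins they are often expressed with. Acta2, smooth muscle actin, had a signal of 2090, 1984 and 977 in KO and of 1140, 1112 and 930.5 in Het replicates 1 to 3, so that KO replicate 1, nearly without Krt5, had the highest value. Tpm2 instead was highest in Het replicate 1, at 1216. It read 617.5 in KO replicate 1, near its lowest value of 614.7 in Het replicate 3. Of the 5 genes kept, 3 were highest in KO replicate 1, and none ranged by 2. Smooth muscle and vessel walls express these genes too. The 10 endothelial markers summed to 4246, 3309 and 1730.5 in KO replicates 1 to 3 and to 3317, 1949 and 2002 in Het replicates 1 to 3, and 9 of the 10 were highest in KO replicate 1. The 10 fibroblast markers summed to 13204, 12207 and 9910.3 in KO and to 8904, 8400 and 8112 in Het replicates 1 to 3, with 5 of the 9 kept highest in KO replicate 1. The part of stroma in the contractile gene values was not tested. The simple keratins of luminal cells varied less than Krt5: Krt8 ranged by 0.33, Krt18 by 0.77, Krt19 by 0.80 and Krt7 by 1.44. Krt18 was highest in KO replicate 1, at 15158 against 8895 to 11452 on the other arrays. Krt19 was lowest there, at 3900 against 4007 to 6821 elsewhere. Of the 4 simple keratins kept, 3 were thus highest in the metastasis with the least Krt5 and Krt14.

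**Figure D3:**
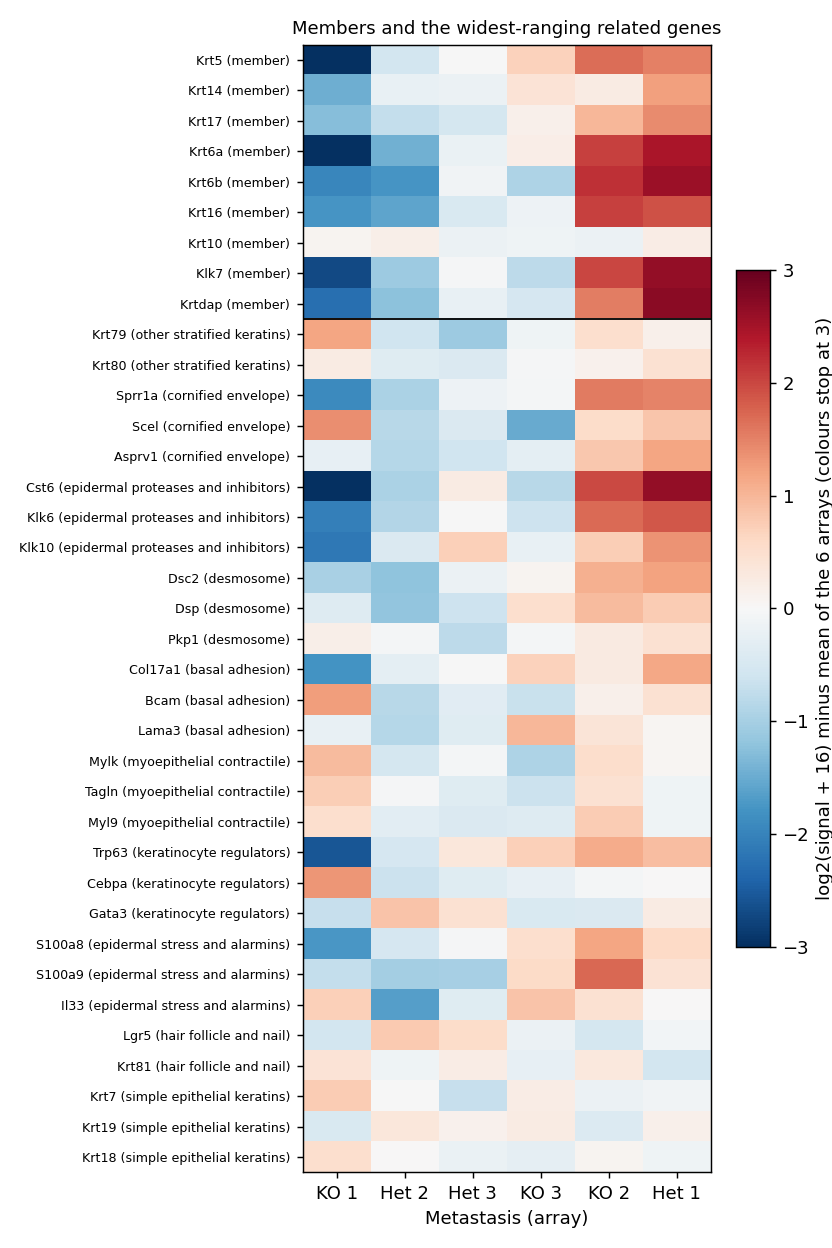
Centred log2(signal + 16) in the 6 metastases (columns, ordered by the mean of the 9 genes) for the 9 keratinocyte genes (above the line) and for up to 3 widest-ranging kept genes of each related list (below it, list in brackets); red is above and blue below the mean of the 6 arrays. Cst6, Klk6, Klk10, Sprr1a, Trp63 and Col17a1 share the blue of KO replicate 1 with the keratins, whereas the contractile genes Mylk and Tagln, with Scel and Krt79, are red there; colours stop at 3.

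Marker lists of other cells were read beside these values. The 11 luminal mammary markers on the array summed to signals of 39663 to 45624 in KO and 40433 to 47984 in Het arrays. Alveolar markers summed to 74421, 47512 and 17442 in KO replicates 1 to 3 and to 41140, 27964 and 28735 in Het replicates 1 to 3; 10 of the 11 kept were highest in KO replicate 1, where the keratins were lowest. KO replicate 3, with the lowest alveolar sum, lay below KO replicate 2 for Krt5 and for 6 of the other genes. The part of lung tissue in the keratin values was not tested. The 9 markers of skin and its appendages on the array, among them Krt1, Flg, Lor, Krt71 and Tchh, summed to 149 to 168 in KO and 112 to 260 in Het arrays, with no single signal above 110.4. Krt15, a keratin of basal and airway basal cells that fell below the filter, read 138 in KO replicate 2 and 223 in Het replicate 1 against 25.5 or less elsewhere. It was picked from the other stratified keratins after its values were seen. Of the 2 kept genes of that list, Krt80 was highest in Het replicate 1 and Krt79 in KO replicate 1, at 1392. Krt23, also below the filter, read 233 in KO replicate 1 against 16.3 to 76.9 elsewhere. The airway basal marker Ngfr did not exceed 38.5.

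S100a8 and S100a9 are made by stressed keratinocytes and also by neutrophils. S100a8 was highest in KO replicate 2, at 4994, and lowest in KO replicate 1, at 644. S100a9 was also highest in KO replicate 2, at 2895. Its signal of 522 in KO replicate 1 lay above 418 and 431 in Het replicates 2 and 3. The 7 neutrophil markers on the array, which include both genes, summed to 8724 in KO replicate 2, 1428 in KO replicate 1 and 4790 in Het replicate 1. Ngp, a neutrophil granule gene, read 381 in KO replicate 2 and 54.2 in Het replicate 1. The part of neutrophils in the S100a8 signal was not tested.

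Between the genotype groups no member passed the main test, in which the spread among the Het arrays does not enter. With limma on 3 KO samples against the average of the 3 Het arrays as 1 sample, 0 of the 9 genes had an adjusted p under 0.05 (Benjamini-Hochberg over 13576 probe sets), beside 0% of all probe sets; each member's limma adjusted p was 0.9999. At an unadjusted p under 0.05 there were 305 probe sets and 0 members, and when all 6 arrays entered separately there were 1395 probe sets and again 0 members, the lowest limma adjusted p of a member being 0.763. The arrays of the groups overlapped for all 9 genes, while 7.87% of all probe sets were higher and 8.89% lower in KO without overlap. The mean Krt5 signal was 970.0 ± 932 over the KO arrays and 894 ± 708 over the Het arrays (SD, n = 3 each). On this linear scale the Krt5 mean was higher in KO, whereas on the log2 scale used below it was lower, by -0.64. For Krt14 these means were 1457 ± 796 and 2079.9 ± 1311 (SD, n = 3 each).

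The log2 differences of KO minus Het were -0.64 (SE 1.88) for Krt5, -0.54 (SE 0.75) for Krt14, -0.54 (SE 1.84) for Krt6a and -0.47 (SE 1.54) for Krt6b. They were -0.10 (SE 0.84) for Krt17, 0.09 (SE 1.37) for Krt16 and -0.14 (SE 0.30) for Krt10. For the squamous genes they were -1.01 (SE 1.69) for Klk7 and -0.82 (SE 1.39) for Krtdap. Thus 8 differences were below 0 and 1 above, with a median of -0.54, beside -0.016 over all probe sets, of which 52.3% were below 0. A p this large does not show that the genotypes are alike, since the standard errors were at least 0.75 for every member but Krt10.

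Single metastases set the sign of these differences. Without KO replicate 1, 8 of the 9 differences were above 0, with a median of 0.40, and Krt5 was at 0.87. Without KO replicate 2 all 9 were below 0, with a median of -1.64, and without KO replicate 3 the median was -0.78. Without Het replicate 1, the array with the raised 3′ to 5′ ratios, 6 of 9 were above 0, with a median of 0.32. Leaving out Het replicate 2 gave a median of -1.07, and leaving out Het replicate 3 gave -0.77, each with all 9 below 0. Genotype and mouse cannot be told apart if the Het arrays share a mouse.

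**Figure D4:**
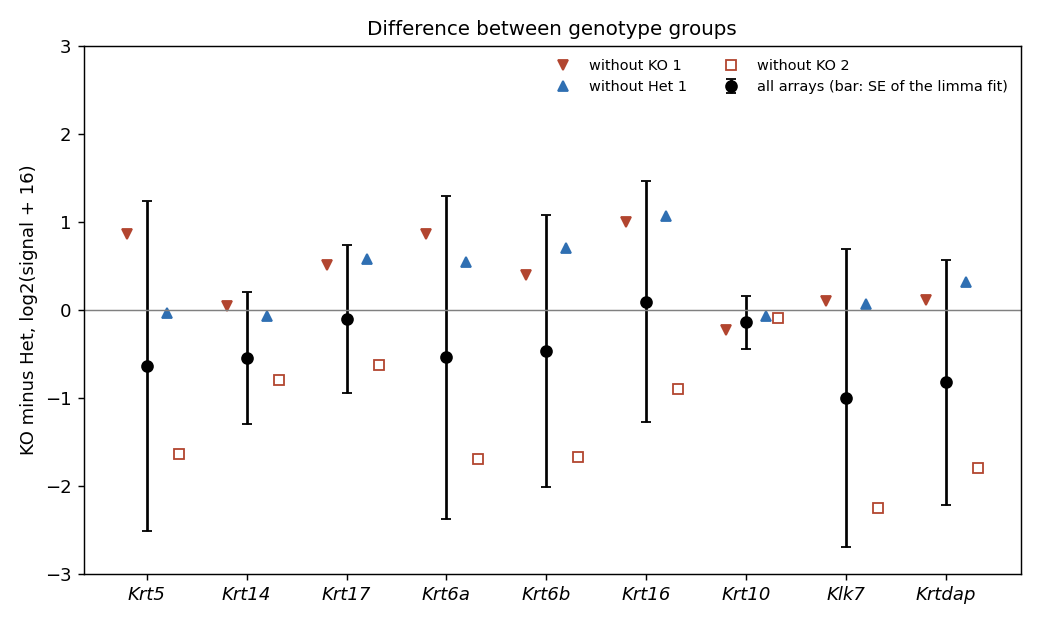
Difference of KO minus Het on the log2(signal + 16) scale (vertical axis) for each keratinocyte gene (horizontal axis), with the standard error of the limma fit on 3 KO samples against 1 averaged Het sample, and the same difference after leaving out KO replicate 1, KO replicate 2 or Het replicate 1. For Klk7 the difference runs from -1.01 with all arrays to 0.10 without KO replicate 1 and -2.26 without KO replicate 2, and Krt10 stays close to 0 in these fits.

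None of the 81 related genes kept passed the limma test either, with 0 at an adjusted p under 0.05. At an unadjusted limma p under 0.05 there were 6 of the 81, beside 305 of all 13576 probe sets. The lists were chosen with earlier results known, so nothing is read from this count. Of the 81 genes, 42 were higher and 39 lower in KO. The epidermal proteases and inhibitors were lower in 6 of 8, with a median of -0.41, among them Cst6 at -1.28 (SE 1.79) and Klk10 at -1.08 (SE 1.06). The median was 0.07 for the 8 cornified envelope genes, -0.04 for the 8 desmosome genes, 0.10 for the 12 of basal adhesion, 0.36 for the 5 contractile genes and 0.11 for the 4 simple keratins. Among keratinocyte regulators, Trp63 was at -0.51 (SE 1.45), and the median of the 17 kept was -0.015. For the 15 genes of epidermal stress and alarmins it was 0.04, and for the 2 each of other stratified keratins and of hair follicle and nail it was 0.63 and -0.25.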

How the data were processed

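RNA from the 6 metastases was biotin-labelled and hybridised to Affymetrix mouse arrays, per the labels' protocols. The authors deposited 1 linear intensity per probe set; MAS5 and Affymetrix Expression Console are named in the submitters' processing notes. No depth applies to array signals, and the number of arrays limits the precision. Of 22690 probe sets, 64 controls and the 40% with the lowest mean signal (under 82.64) were left out, which kept 13576, all 9 members among them; a member could pass through its bright arrays alone. Signals were transformed to log2(signal + 16), which understates the change of dim genes. The 3 Het arrays, which share a title number, entered as their mean, against 3 KO samples, in limma 3.58.1 in R 4.3.3 (lmFit, eBayes with a trend, Benjamini-Hochberg over all probe sets, threshold 0.05). This takes the spread of the KO samples for that of the single Het value. Since the labels do not say whether samples are from separate animals, p-values measure only the spread between these samples, which may be technical. Each gene's values are those of its brightest probe set with 1 symbol in the platform annotation. The fit was tested on simulated data with independent noise on every array. That does not mimic samples that share a mouse, and the outcome is not given here. Replicates are numbered in accession order.

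The members and lists were chosen with earlier results of these data known. Named were all 9 members, up to 3 kept genes with the widest range in each related list, the 10 genes nearest to the mean profile and the 3 nearest to each member with a range of at least 2; further genes named for the role they have were chosen after their values were seen. Alternatives covered the unit of replication, pseudocount, filter, scaling, variance trend, probe sets and leaving out each array.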

Additional observations from a re-analysis of the deposited data

How the results depend on the processing

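No probe set had a limma adjusted p under 0.05 in any of the 14 alternatives in which all probe sets were fitted anew, and no member had one in any of the 15 alternatives. The lowest limma adjusted p over all probe sets was 0.0538 with each array as a sample, 0.259 with samples of 1 title number as a block (correlation 0.315) and 0.405 without KO replicate 3. The median difference of the members stayed between -0.55 with a pseudocount of 1 and -0.39 with a pseudocount of 64 outside the fits that left out an array, where it ran from -1.64 to 0.40. Their median range over the arrays was 4.53, with 5.14 and 3.31 at pseudocounts of 1 and 64, 4.62 with quantile normalization and 3.62 without KO replicate 1. With the lowest 60% left out, Krt16, Krt10 and Krtdap were no longer tested.

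Every change of sign among the members came from leaving out 1 array. Over those fits the difference ran from -1.64 to 0.87 for Krt5, -0.88 to 0.047 for Krt14, -0.62 to 0.57 for Krt17, -1.70 to 0.86 for Krt6a, -1.68 to 0.70 for Krt6b, -0.91 to 1.07 for Krt16, -2.26 to 0.10 for Klk7, -1.79 to 0.32 for Krtdap and -0.27 to -0.07 for Krt10, which kept its sign. No paired analysis was possible because the replicate numbers follow accession order and pair no samples. Detection calls were not used, so dim signals have no known background.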
